A study of Mus musculus with 8 samples.

Results

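The 10 genes described here encode enzymes that make serine, pass its carbon to folate, make asparagine in the cytosol, or make phosphoenolpyruvate in mitochondria. They were picked out by name, as the rows of the deposited table for Phgdh, Psat1, Psph, Shmt1, Shmt2, Mthfd1l, Mthfd2, Aldh1l2, Asns and Pck2, and they make up 10 of its 22063 genes. The list was selected on the tranilast-to-control values of these same counts, so the members' values and differences in that contrast are a description. No p-value is given for them, and where the calls of the fit over all genes are counted among them, the count supports nothing. RNA sequencing had been run on 8 mouse libraries labelled liver and WT, of which 4 were labelled as control and 4 as control plus tranilast. Tranilast is an anti-allergic drug of the anthranilate type. Per the series' design text both groups came from animals on a high-fat and high-cholesterol (HFHC) diet, which the controls therefore share, and the study's methods describe male C57BL/6J mice that received vehicle or tranilast by mouth during the later part of that diet. The labels give neither the diet, the age nor the dose of a library, and they do not say that each library was a separate animal, so every p-value measures the spread between these libraries, which may be technical.

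Serine is made from the glycolytic intermediate phosphoglycerate by PHGDH, PSAT1 and PSPH acting in turn. The serine hydroxymethyltransferases SHMT1 (cytosol) and SHMT2 (mitochondria) split serine into glycine and a folate-bound carbon unit, which MTHFD2 and MTHFD1L turn into formate inside mitochondria and which ALDH1L2 can burn to CO2. Asparagine synthetase makes asparagine from aspartate. In many cell types several genes of this group, though not all, are known targets of ATF4, the transcription factor of the amino acid and integrated stress responses.

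Each control library held 14585153 to 15618787 estimated counts and each tranilast library 12053036 to 14679386. Hepatocyte transcripts were all but missing from them. The 9 hepatocyte markers summed to at most 0.000191% of counts in any library, with Cps1, Hnf4a, Serpina1a and Tat at 0 in all 8 libraries, whereas 15 macrophage markers took 0.979% to 1.04% of counts in the control libraries and 0.958% to 1.02% in the tranilast libraries. The macrophage markers were uneven. Lyz2 had 51267 to 68975 counts per library, whereas Mertk, Mrc1, C1qa, C1qb and C1qc had at most 1, 3, 11, 6 and 8. The Kupffer cell markers Clec4f, Timd4 and Vsig4 were also at 0 in all 8 libraries, and Alb had at most 2 counts. The label liver was thus not borne out by its defining markers, and the cells are called here only by their group. In bulk RNA, fewer cells of a type and less RNA per cell cannot be told apart. Values are given as CPM, a count as its share of the library's counts in parts per 1000000, after scaling by the trimmed mean of M-values (TMM), or, where genes are compared with each other, as the deposited FPKM, which divide a count by transcript length as well as by library size. Marker lists of endothelial cells, stellate cells and fibroblasts, lymphocytes and neutrophils each came to at most 0.00016% of counts.

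Of the 10770 genes with enough counts to test, 57% differed between the groups at an adjusted p under 0.05 (edgeR quasi-likelihood, Benjamini-Hochberg), 28.2% higher and 28.8% lower with tranilast. Beside that background, 6 of the 10 enzyme genes were past the same threshold on the higher side (Phgdh, Psph, Mthfd2, Aldh1l2, Asns and Pck2), 1 on the lower side (Mthfd1l), and 3 on neither (Psat1, Shmt1 and Shmt2). All 10 had been tested, the lowest mean count being 433. None of them reached a log2 fold change of 1.5 in either direction. Of all tested genes, 1.11% reached it together with an adjusted p under 0.05. The CPM ranges of the groups did not overlap for 7 of the 10, against 49.8% of all tested genes. The median log2 fold change was 0.25 over the 10 genes and 0.01 over all tested genes, and the median size of the change regardless of sign was 0.37 and 0.21. Since the members were chosen on this contrast, nothing is read from these shares. The number of members past the threshold on the higher side went to 8 with upper-quartile factors and to 9 with library size alone. Those scalings moved the median of all genes up by 0.07 and by 0.12 on the log2 scale, and under them 62.6% and 70.9% of the called genes were on the higher side, against 49.5% with TMM.

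**Figure D1:**
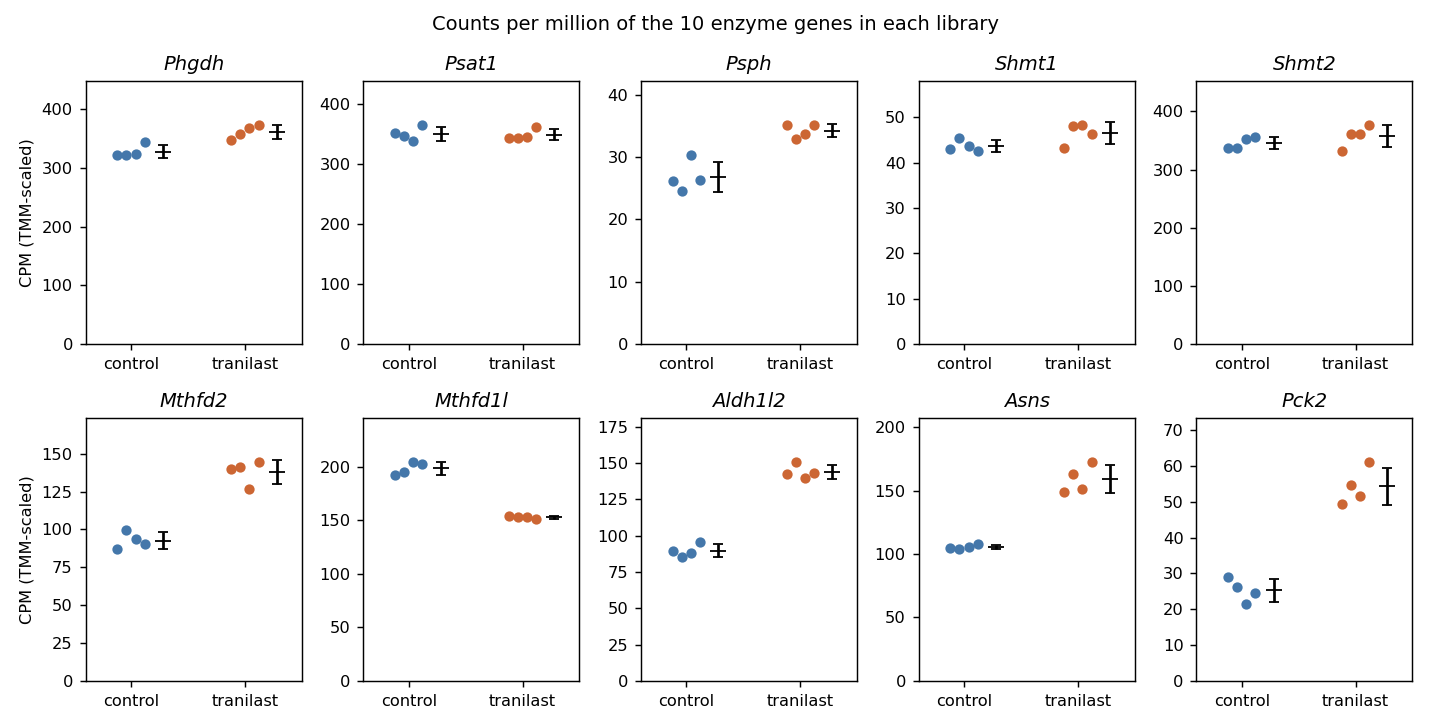
CPM (vertical axis, TMM-scaled, from 0) of each of the 10 genes in the 4 control and 4 tranilast libraries. Points are libraries in the order of their replicate number and the bar beside them is the mean ± SD, with no overlap between groups for 7 genes and overlap for Psat1, Shmt1 and Shmt2.

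Among the serine synthesis genes the first 2 steps were high and the last was low. In the control libraries Phgdh had the highest FPKM of the group, 166 ± 5.62 (SD, n = 4), above Shmt2 at 146 ± 4.16 and Psat1 at 134 ± 4.54. Phgdh (ENSMUSG00000053398, chr3:98313170-98339990 on GRCm38, minus strand) encodes phosphoglycerate dehydrogenase, the entry step of the route. Its CPM was 321, 321, 324 and 343 in control replicates 1 to 4, and 347, 358, 368 and 373 in tranilast replicates 1 to 4. All 4 tranilast libraries lay above all 4 control libraries, but the nearest pair, control replicate 4 and tranilast replicate 1, was only 3.49 CPM apart. The log2 fold change was 0.14 (SE 0.031), which is 1.1-fold.

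Psat1 (ENSMUSG00000024640, chr19:15904678-15947337, minus strand) encodes the aminotransferase of the middle step, and it differed least of the 10. CPM read 351, 346, 337 and 365 in the control libraries and 343, 343, 344 and 361 in the tranilast libraries. The tranilast range lay inside the control range, with a log2 difference of -0.01 (SE 0.031) whose sign was not fixed, since it ranged from -0.02 to 0.11 over the other ways of processing.

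Psph (ENSMUSG00000029446, chr5:129765558-129787449, minus strand) encodes the phosphatase that releases free serine and had the lowest level of the 3 serine synthesis genes, at 15.9 ± 1.54 FPKM (SD, n = 4) in the control libraries. Its CPM was 26.2, 24.5, 30.3 and 26.4 in the control group and 35.2, 32.9, 33.8 and 35.2 with tranilast. The highest control library stayed 2.65 CPM below the lowest tranilast library, and the log2 fold change was 0.35 (SE 0.069). Psph shares 452 exon bases with Cct6a on the opposite strand, and its counts were fractional in all 8 libraries. Cct6a itself was lower with tranilast, by -0.53 (SE 0.027) on the log2 scale, and reads from the shared bases cannot be told apart because the library kit named in the study's methods does not mark strand. Summed over the serine synthesis genes, CPM was 704 ± 20.4 in the control libraries and 744 ± 19.5 in the tranilast libraries (SD, n = 4), with ranges of 692 to 734 and 725 to 770 that overlapped.

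The steps that hand carbon from serine to folate overlapped between the groups in TMM-scaled CPM but not in FPKM. Shmt2 (ENSMUSG00000025403, chr10:127517123-127522444, minus strand) encodes the mitochondrial serine hydroxymethyltransferase. Its CPM was 337, 338, 352 and 356 in control replicates 1 to 4 against 333, 362, 361 and 377 in tranilast replicates 1 to 4. Tranilast replicate 1 was the lowest of all 8 libraries while the other 3 tranilast libraries were above every control library, giving a log2 difference of 0.05 (SE 0.035). Without that library the log2 difference was 0.09. In FPKM the Shmt2 ranges lay side by side, at 142 to 150.1 in control libraries and 151 to 173 in tranilast libraries. Shmt1 (ENSMUSG00000020534, chr11:60788104-60811718, minus strand), the cytosolic form, had CPM values of 43, 45.4, 43.7 and 42.6 in the control group and 43.2, 48.1, 48.3 and 46.4 with tranilast. Again tranilast replicate 1 fell among the control libraries, and the log2 difference was 0.09 (SE 0.052). In FPKM, which carry no TMM factor, Shmt1 ranged from 14.4 to 15.6 over control libraries and from 17.5 to 19.8 over tranilast libraries. The difference in mean log2 FPKM was 0.28, against 0.21 in counts with library size alone. Shmt1 shares 184 exon bases with Smcr8 on the opposite strand, a gene that was higher with tranilast by 0.32 (SE 0.031) on the log2 scale. In FPKM, Shmt2 stood 9.06 to 10.5 times above Shmt1 in the control libraries and 8.28 to 9.46 times above it in the tranilast libraries, ranges that overlapped.

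In mitochondrial folate metabolism 2 members were higher with tranilast and 1 was lower. Mthfd2 (ENSMUSG00000005667, chr6:83305691-83325908, minus strand) encodes the dehydrogenase and cyclohydrolase that oxidises methylene-tetrahydrofolate, and it is better known from embryonic and proliferating cells than from resting adult tissue. CPM was 87.2, 99.6, 93.9 and 90.1 in the control libraries, and 140, 141, 127 and 145 in the tranilast libraries. The lowest tranilast library was 27.1 CPM above the highest control library, and the log2 fold change was 0.58 (SE 0.048), or 1.49-fold.

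Aldh1l2 (ENSMUSG00000020256, chr10:83487450-83534140, minus strand) encodes the mitochondrial formyl-tetrahydrofolate dehydrogenase, which releases the carbon as CO2 and yields NADPH. Its CPM was 89.5, 85, 87.9 and 95.9 in the control group and 142, 151, 140 and 143 with tranilast. The gap between the groups was 43.9 CPM, and at 0.69 (SE 0.042) the log2 fold change was second to that of Pck2 among the 10 genes. Aldh1l2 shares 1056 exon bases with Nopchap1 on the opposite strand, which carried 13660 to 16240 counts per library and was higher by 0.11 (SE 0.025) on the log2 scale. Reads in those bases cannot be told apart, and Aldh1l2 counts were fractional in all 8 libraries, and there were 1224 to 1374 per control library against 1750 to 2190 per tranilast library.

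Mthfd1l (ENSMUSG00000040675, chr10:3973118-4167081, plus strand) encodes the mitochondrial ligase that sets formate free, and it was the only member lower with tranilast by more than the spread between libraries. CPM was 192, 195, 205 and 203 in control replicates 1 to 4, and 154, 153, 153 and 151 in the tranilast libraries. The tranilast libraries agreed to within a few CPM, and each was at least 38.4 CPM under every control library. The log2 fold change was -0.38 (SE 0.033), and it ranged from -0.40 to -0.26 over the 18 other settings.

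Because Mthfd2 was higher and Mthfd1l lower, the order of these 2 genes changed, while Aldh1l2, though higher, stayed below both in FPKM. In FPKM, Mthfd2 was 0.773 to 0.892 times Mthfd1l in the control libraries and 1.43 to 1.67 times it in the tranilast libraries, so Mthfd1l led in all 4 of the former and Mthfd2 in all 4 of the latter. The ratio of Aldh1l2 to Mthfd1l in FPKM went from a range of 0.280 to 0.301 to a range of 0.556 to 0.610. A ratio of 2 genes within a library does not change with the scaling of that library. The 3 genes together summed to 381 ± 8.96 CPM in the control group and 435 ± 10.9 CPM in the tranilast group (SD, n = 4). In FPKM, which carry no TMM factor, the sums were 110 ± 2.9 and 138 ± 4.49, which lie further apart.

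**Figure D2:**
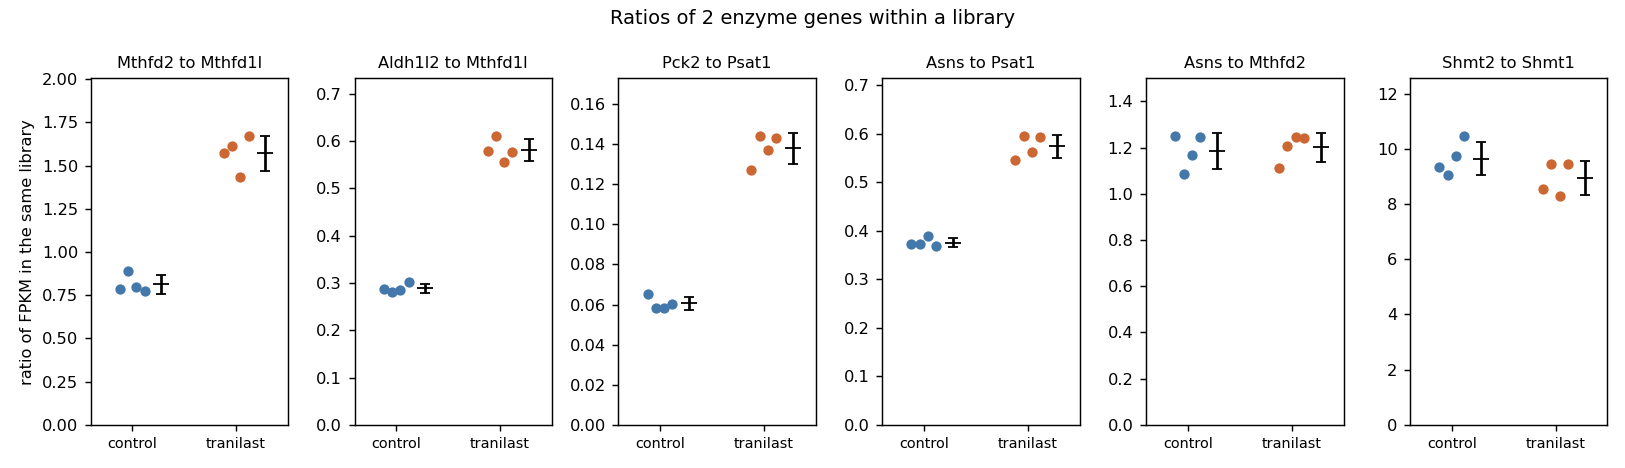
Ratio of the FPKM of 2 genes in the same library (vertical axes, from 0) for 6 pairs, with control and tranilast libraries as points in replicate order and the mean ± SD beside them. The ratios over Mthfd1l and over Psat1 separate the groups, and those of Asns to Mthfd2 and of Shmt2 to Shmt1 overlap. The values of Mthfd1l and Psat1 in this contrast were known, so the separation is a description.

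Asns (ENSMUSG00000029752, chr6:7675169-7693254, minus strand) encodes asparagine synthetase, which moves the amide of glutamine to aspartate. Its CPM was tightly held in the control group, at 105, 104, 105 and 108, and reached 149, 163, 151 and 173 with tranilast. The gap between the groups was 41.4 CPM, the SD was 1.7 in the control libraries and 11 in the tranilast libraries, and the log2 fold change was 0.60 (SE 0.044).

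Pck2 (ENSMUSG00000040618, chr14:55540266-55551242, plus strand) encodes the mitochondrial phosphoenolpyruvate carboxykinase, which turns oxaloacetate into phosphoenolpyruvate. CPM was 28.9, 26.2, 21.4 and 24.6 in the control libraries against 49.5, 54.8, 51.6 and 61.2 in the tranilast libraries. Every tranilast library was thus higher than every control library by at least 20.6 CPM. The log2 fold change of 1.11 (SE 0.081), or 2.15-fold, was the highest of the 10. Pck1, the cytosolic enzyme that prevails in hepatocytes, had 0 to 6 counts in the control libraries and none in the tranilast libraries and was not tested.

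ATF4 acts with C/EBP-family partners on composite sites that read TGATGNAAN, and the promoter windows of the members were searched for these letters on both strands, with TGATGCAA as a stricter form that lies within it. RefSeq windows on GRCm38.p6, of 250 bases before and 50 after a start site, were found for 9 of the 10 genes, with 2 for Psat1 and none for Aldh1l2. Asns and Pck2 held TGATGNAAN, while 4.5% of all 27025 genes with a window did. TGATGCAA was in none of the members' windows and in 1.03% of all genes with one. The windows of Asns (chr6:7693160-7693459, minus strand) and Pck2 (chr14:55540016-55540315, plus strand) are shown 5′ to 3′ along the gene, because they hold a match and belong to members with clear differences, and capitals mark the match.
Asns: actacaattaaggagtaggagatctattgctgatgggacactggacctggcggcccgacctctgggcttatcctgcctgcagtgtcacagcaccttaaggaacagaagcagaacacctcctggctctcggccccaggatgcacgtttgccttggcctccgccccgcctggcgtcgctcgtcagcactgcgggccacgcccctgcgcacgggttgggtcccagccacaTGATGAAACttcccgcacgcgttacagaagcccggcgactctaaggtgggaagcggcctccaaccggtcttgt
Pck2: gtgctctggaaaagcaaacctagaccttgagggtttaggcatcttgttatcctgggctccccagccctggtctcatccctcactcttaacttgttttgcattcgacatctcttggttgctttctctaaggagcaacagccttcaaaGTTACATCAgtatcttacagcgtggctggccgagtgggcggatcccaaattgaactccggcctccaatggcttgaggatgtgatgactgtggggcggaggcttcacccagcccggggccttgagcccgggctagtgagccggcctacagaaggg
In Asns the match is on the strand of the gene, reads TGATGAAAC and begins 23 bases before the start site. In Pck2 it is on the other strand, where it reads TGATGTAAC, and its first base along the gene is 104 bases before the start site. A match is a description of these letters only, and the windows of Phgdh, Psat1, Psph, Shmt1, Shmt2, Mthfd2 and Mthfd1l held none.

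Set in order of FPKM, the genes fell into 3 tiers in the control libraries. Phgdh, Shmt2 and Psat1 led, each above the next in all 4 libraries with no overlap of ranges. Mthfd1l at 52.6 ± 1.54, Asns at 50.5 ± 0.912 and Mthfd2 at 42.7 ± 2.36 FPKM followed, the first and the second of these overlapping. Psph, Aldh1l2 at 15.2 ± 0.794 and Shmt1 at 15.1 ± 0.541 FPKM overlapped each other, and Pck2 came last at 8.16 ± 0.576 FPKM (SD, n = 4 for each). In the tranilast libraries the same 3 genes led, at 199 ± 6.83 for Phgdh, 163 ± 9.01 for Shmt2 and 144 ± 5.4 FPKM for Psat1. There the ranges of Shmt2 and Psat1 overlapped, although Shmt2 was above Psat1 in each of the 4 libraries. Asns at 82.8 ± 6.02 and Mthfd2 at 68.9 ± 4.08 FPKM had passed Mthfd1l at 43.9 ± 0.323 FPKM. Pck2, at 19.9 ± 1.64 FPKM, now overlapped Psph at 22.5 ± 0.867 and Shmt1 at 18.3 ± 1.05 FPKM, and Aldh1l2 stood at 25.5 ± 0.963 FPKM.

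**Figure D3:**
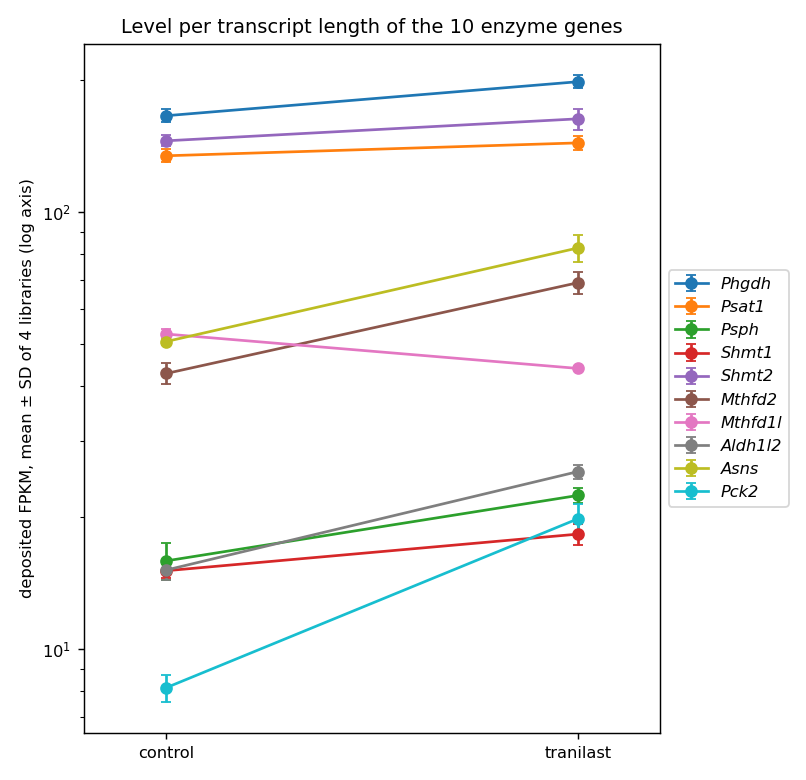
Deposited FPKM (vertical log axis) of the 10 genes as mean ± SD of the 4 libraries in each group, with 1 coloured line per gene. Mthfd1l is the gene whose line falls, from 52.6 to 43.9 FPKM, and Pck2 has the steepest line, from 8.16 to 19.9 FPKM. These FPKM carry no TMM factor.

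Psat1 was the member with the smallest log2 difference in this same contrast, and ratios to it within a library need no scaling. Members already apart between the groups could be foreseen to separate over it. These ratios are therefore a description that supports nothing. The ratios of Phgdh, Psph, Asns and Pck2 to Psat1 did not overlap between the groups. In FPKM, Phgdh was 1.22 to 1.27 times Psat1 in the control libraries and 1.34 to 1.44 times it in the tranilast libraries. Asns went from 0.369 to 0.389 times Psat1 up to 0.546 to 0.595 times it. Pck2 went from 0.0584 to 0.0653 times Psat1 up to 0.127 to 0.144 times it. The ratio of Asns to Mthfd2, from different routes, overlapped between the groups, spanning 1.08 to 1.25 over control libraries and 1.11 to 1.24 over tranilast libraries.

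Deviations of the members within a group were compared pair by pair. Of the 45 pairs of members, 30 had a positive Pearson correlation of their deviations from the group mean over the 8 libraries, with a median r of 0.18 and a span from -0.87 for Mthfd1l with Pck2 to 0.84 for Phgdh with Shmt2. These r values share libraries and their scaling and are given without a test. Some spreads were no wider than counting error, as for Asns in the control libraries, with a relative SD of 1.61% and a counting error of 2.56%. A low r therefore need not mean that members varied apart. Tranilast replicate 4, the deepest library of its group, held the highest tranilast CPM of 7 of the 10 genes. No share over all genes is given beside this count, so nothing is read from it, and a part of depth was not tested. The relative SD between libraries of a group was narrowest for Mthfd1l in the tranilast libraries, at 0.802%, and widest for Pck2 in the control libraries, at 12.4%, where 320 to 406 counts per library give a counting error of 5.24%.

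Several of the mitochondrial enzymes have a close relative encoded by another gene. Mthfd1, the cytosolic enzyme with MTHFD2-like and ligase activities in 1 protein, fell from 193 ± 11.9 to 166 ± 5.32 CPM (SD, n = 4), which is -0.22 on the log2 scale (SE 0.041, adjusted p = 1.8e-04, edgeR quasi-likelihood), which was not past the threshold on the FPKM scale. Mthfd2l and Aldh1l1 were low, at 4.3 ± 0.83 and 2.71 ± 0.607 CPM in the control libraries and 4.16 ± 0.492 and 2.69 ± 0.258 CPM in the tranilast libraries, and neither passed the test. The difference of Mthfd2 was thus not accompanied by a detectable one in Mthfd2l, whose log2 value of -0.04 had an SE of 0.18.

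The other genes of these routes are described list by list. Each count stands beside the 28.2% of all tested genes that were higher and the 28.8% that were lower, and a list near those shares shows nothing particular to its route. Of 12 tested genes of the cytosolic folate cycle and folate uptake, 2 rose and 5 fell, with a median log2 fold change of -0.003. Atic, which closes the purine ring, fell by 0.43 on the log2 scale (SE 0.034). Of 10 tested genes of mitochondrial folate and glycine cleavage, 2 rose and 3 fell, with a median of -0.04. Sfxn3, of a family of mitochondrial serine carriers, rose from 26.8 ± 1.77 to 38.4 ± 1.81 CPM (SD, n = 4), by 0.52 (SE 0.065) on the log2 scale. Its relative Sfxn1 was lower by only -0.11 (SE 0.047), a call lost without any single library other than control replicate 1, at -0.09 to -0.12, and a sign that turned with library size alone and on the FPKM scale. Gcsh of the glycine cleavage system was at -0.12 (SE 0.046), a call lost with upper-quartile factors, library size alone and FPKM, and without control replicate 1 (-0.09) or tranilast replicate 2 (-0.10). Gcat, which cleaves the threonine product aminoketobutyrate, has 2 rows, both with fractional counts. The row with the higher mean count fell by 0.84 (SE 0.12), from 16.5 to 9.17 CPM. The other stood at -0.03 (SE 0.17), at 8.02 and 7.85 CPM, and was the larger in tranilast replicate 3, at 9.18 against 7.11 CPM. The gene as a whole was not tested.

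Serine has many uses, and of 10 tested genes of its use and breakdown 4 rose and 1 fell, with a median of 0.12. The neutral amino acid transporter gene Slc1a4, which carries serine, alanine and cysteine, was at 2.63, 4.1, 3.88 and 5.23 CPM in the control libraries and at 13.1, 13.6, 11.7 and 16.9 CPM in the tranilast libraries. The groups were wide apart, with a log2 fold change of 1.80 (SE 0.17, adjusted p = 4.5e-08, edgeR quasi-likelihood). Serine racemase, Srr, rose by 0.75 (SE 0.12), Serinc1 by 0.22 (SE 0.032), and Sptlc1, a subunit of the enzyme that opens sphingolipid synthesis from serine, by 0.21 (SE 0.058). In the methionine cycle and transsulfuration 2 of 10 tested genes rose and 2 fell, with a median of -0.003. Cth, the cystathionine lyase that yields cysteine, rose from 4.9 ± 1.06 to 10.4 ± 1.92 CPM, by 1.09 (SE 0.16) on the log2 scale, and the methionine synthase gene Mtr rose by 0.14 (SE 0.04). Mtap fell by 0.31 (SE 0.04), while Ahcyl1, at -0.09 (SE 0.03), lost its call without control replicate 3 (-0.08) or tranilast replicate 3 (-0.07) and turned positive with library size alone and on the FPKM scale.

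Around Asns, 7 of 16 tested genes of aspartate, asparagine, glutamine and proline metabolism rose and 3 fell, with a median of 0.26. Gpt2, the mitochondrial alanine aminotransferase, rose from 16 ± 1.45 to 37.1 ± 1.75 CPM (SD, n = 4), or by 1.21 on the log2 scale (SE 0.075, adjusted p = 1.8e-10, edgeR quasi-likelihood). Aldh18a1, which opens proline synthesis from glutamate, rose by 0.49 (SE 0.056), the glutamine synthetase gene Glul by 0.45 (SE 0.06), and Nars, which charges tRNA with asparagine, by 0.40 (SE 0.034). The glycolytic genes that lie before Phgdh and around the product of PCK2 went the other way, with 5 of 9 tested genes lower and 1 higher and a median of -0.43. Pgam1, whose enzyme competes with PHGDH for phosphoglycerate, fell from 1560 ± 36.4 to 956 ± 29.7 CPM, by 0.71 (SE 0.025) on the log2 scale. Eno1 fell by 0.64 (SE 0.023), Gapdh by 0.52 (SE 0.021) and Pgk1 by 0.47 (SE 0.031).

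**Figure D4:**
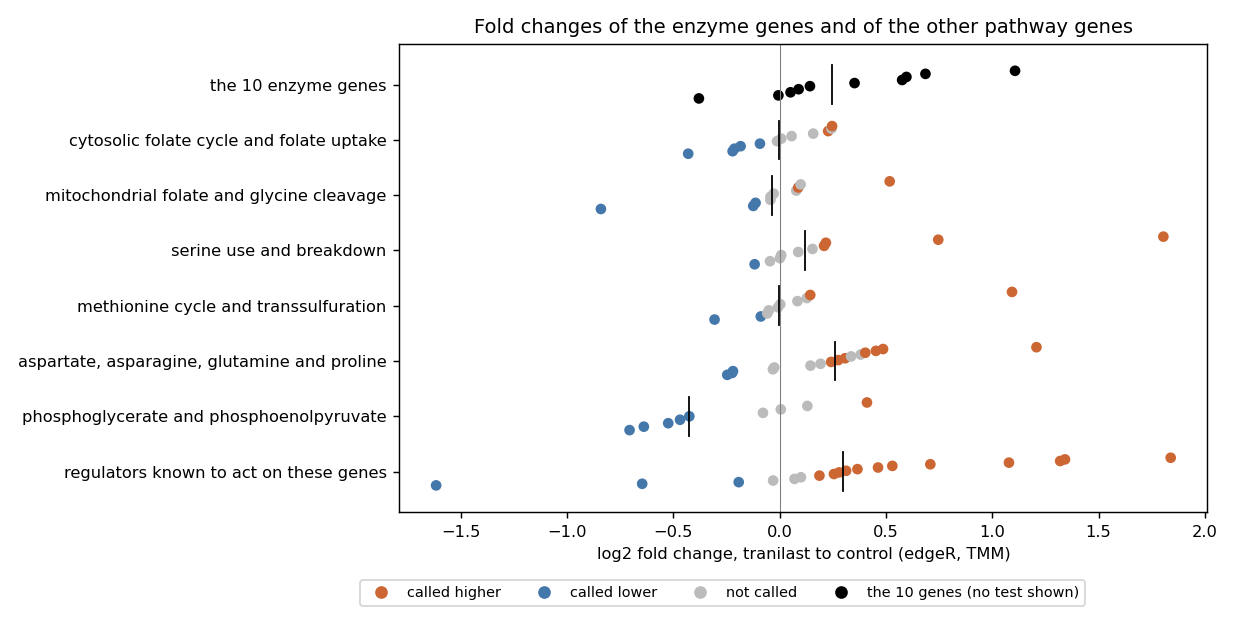
Log2 fold change of tranilast to control (horizontal axis, edgeR with TMM) for the 10 enzyme genes in black and for the tested genes of 7 lists, orange where called higher, blue where called lower and grey where not called. Upright strokes mark each row's median, which runs from -0.43 for the phosphoglycerate and phosphoenolpyruvate genes to 0.30 for the regulators. The row of regulators also holds known targets of ATF4.

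A further list held regulators of the enzyme genes together with known targets of ATF4, among them Trib3, Ddit3 and Chac1. Of its 18 tested genes 12 rose and 3 fell, with a median of 0.30, so these counts are not of regulators alone. Atf4 rose from 149 ± 5.16 to 205 ± 4.66 CPM (SD, n = 4), or by 0.46 on the log2 scale (SE 0.035, adjusted p = 2.5e-09, edgeR quasi-likelihood). Its known targets Trib3, Ddit3 and Chac1 rose by 1.84 (SE 0.14), 1.34 (SE 0.14) and 1.32 (SE 0.22), all from low levels of 5.49 ± 1.47, 5.09 ± 1.12 and 1.63 ± 0.313 CPM. Myc, another activator of serine and folate genes, fell by 1.62 (SE 0.31), from 2.33 ± 0.66 to 0.76 ± 0.202 CPM. Whether Atf4 or Myc had a part in the enzyme genes' values was not tested. Genes of the cell cycle moved in the same comparison, with 15 of 24 tested lower and 5 higher and a median log2 fold change of -0.63, and their part in the enzyme genes' values was not tested.

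The genes of the table whose profile over the 8 libraries came closest to the median profile of the 10 enzyme genes were Dip2b, Thrap3, Mbtps1, Aplp2 and Gak. They lay within a root mean square of 0.029 to 0.032 log2 units of it, out of 9752 genes compared. Their log2 fold changes were 0.23 to 0.27, beside a median of 0.25 over the members. That profile comes from the contrast on which the members were chosen. The match is therefore a description that supports nothing, and it does not show that these genes behave like any single member.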

How the data were processed

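The 8 libraries were prepared from poly-A RNA with a TruSeq kit and sequenced by the study. The authors deposited 1 table of 22063 genes with, for each library, an estimated count and an FPKM value. The estimated counts deposited by the authors were fractional for some genes and were rounded to whole numbers, and aligner, counter and genome build are not given in the sources used here. A gene symbol, its description and pathway terms were in the table, and the pathway terms were used only among the closing observations.

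The members and the gene lists were chosen with earlier results of these data known. Groups came from the sample titles. The counts were filtered with filterByExpr, scaled by TMM and fitted without a replicate block by edgeR 4.0.16 (quasi-likelihood, R 4.3.3) over 10770 genes, with Benjamini-Hochberg adjustment over all of them. The common biological coefficient of variation was 5.09%. Alternatives were RLE, upper-quartile and unit factors, other count filters, DESeq2 1.42.0, limma 3.58.1 on voom weights and on log2(FPKM + 1) and log2(FPKM + 0.1), a replicate block, and each library left out in turn. A log2 value on the FPKM + pseudocount scale understates the change of low genes. The scripts were tested on simulated data. From each pathway list the text names up to 4 genes by size of change among those called with a mean count of at least 20, with Atf4 as a fixed addition. Some genes that this rule names are not reported here. The profile match used genes with a mean count of at least 50. Positions are from GENCODE M21 on GRCm38 and promoter windows from RefSeq on GRCm38.p6. Counting error shrinks as counts grow, and the relative errors given for counts cover counting only. A comparison of protein sequences was planned and is not reported here.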

Additional observations from a re-analysis of the deposited data

Results flagged for a closer look

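Over 38 genes, 76 groups of 4 libraries were screened for a library whose gap to its nearest neighbour took up more of the group's range than Dixon's critical value at the 95% level allows. Chance flags about 1 in 20 such groups. 8 were past it. Among the enzyme genes, Phgdh in control replicate 4 stood at 343 CPM where the other control libraries lay between 321 and 324 (gap share 0.852), and Psat1 in tranilast replicate 4 stood at 361 CPM where the others lay between 343 and 344 (0.923).

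Nars was also high in tranilast replicate 4, at 298 CPM against 272.9 to 273.2 (0.989). Aldh18a1 was high in control replicate 4, at 90.9 CPM against 78.2 to 80.1 (0.84). Gcat was low in control replicate 2, at 14.7 CPM against 17 to 17.2 (0.897), and Pgk1 was high in that library, at 1759 CPM against 1579 to 1593 (0.921). Control replicate 1 was low for Sfxn3, at 24.2 CPM against 27.3 to 27.9 (0.84), and high for Gcsh, at 85.6 CPM against 77.1 to 78.2 (0.867).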

How the results depend on the processing

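As a description of genes chosen on this contrast, which supports nothing, 6 to 9 of the enzyme genes were past the threshold on the higher side and 1 on the lower over the 18 other settings. Among all 10770 tested genes, 3039 were past it on the higher side in the main fit. That number was 3882 with upper-quartile factors, 4613 with library size alone, 3958 on log2(FPKM + 1) and 3959 on log2(FPKM + 0.1). The median log2 fold change of the 10 was 0.25, against 0.31 with upper-quartile factors, 0.36 with library size alone, 0.37 on log2(FPKM + 1) and 0.39 on log2(FPKM + 0.1). These settings divide by other totals and moved the median of all genes with it.

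The lists were less steady. With upper-quartile factors, library size alone and both FPKM scales, serine use and breakdown had 7 genes higher and 0 lower, the methionine cycle 1 lower, and mitochondrial folate 1 lower. Cytosolic folate had 3 lower with upper-quartile factors or library size alone and 1 on both FPKM scales. With library size alone and both FPKM scales the methionine cycle had 4 higher and the phosphoglycerate list 3 higher. Mitochondrial folate had 1 higher with RLE factors, with no count filter and in DESeq2. With each library left out in turn, it had 1 to 2 higher (1 without any library but control replicate 2 or tranilast replicate 1) and 1 to 2 lower (1 without tranilast replicate 2). Cytosolic folate had 3 to 5 lower (3 without control replicate 4 or tranilast replicate 3), and the methionine cycle 1 to 2 (1 without replicate 3 of either group). The sign of Sfxn1 turned to 0.00295, 0.00433 and 0.00452, and that of Ahcyl1 to 0.0274, 0.0709 and 0.0719, with library size alone, log2(FPKM + 1) and log2(FPKM + 0.1). Called genes with a log2 fold change of at least 1.5 in either direction numbered 120. There were 322 with no filter, 66 with at least 10 counts in every library and 32 on log2(FPKM + 1). These numbers differ because the filter sets how many low genes are tested and the pseudocount shrinks low genes. For the other changes the cause was not tested.

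With the replicate number as a replicate block 6009 genes were called instead of 6143, with 6 enzyme genes higher and 1 lower as before. Deviations of libraries with the same number had r of -0.056, -0.032, 0.004 and 0.096, and those with different numbers spanned -0.18 to 0.21. The labels name no pairing, and whether equal numbers mark a shared batch was not tested.

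Depth limits the low genes most. Pck2 rests on 320 to 938 counts per library and Shmt1 on 605 to 711, where its log2 difference of 0.09 had an SE of 0.052.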

Other observations

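The deposited table gives both a count and an FPKM for each gene, and their quotient, multiplied out by the library total, is the transcript length in kilobases that the FPKM was divided by. For Phgdh, Asns and Mthfd2 this length was all but constant, at 1.89, 2 and 2.08 kb in the control libraries and 1.89, 2 and 2.08 kb in the tranilast libraries. For Pck2 it varied between libraries, from 2.71 to 3.21 kb in the control group and from 2.78 to 2.94 kb in the tranilast group. For Shmt1 it ran from 2.72 to 2.86 kb and from 2.53 to 2.86 kb, and for Aldh1l2 from 5.49 to 5.86 kb and from 5.77 to 5.95 kb. The ranges of the groups overlapped for all 10 enzyme genes. Among 9655 tested genes with an FPKM over 1 in every library, the ranges did not overlap for 5.27%. Beside these lengths, the difference of Shmt1 was 0.28 in mean log2 FPKM, 0.21 in counts with library size alone and 0.09 in TMM-scaled counts. Its implied length had a log2 ratio of -0.07, tranilast to control. Leaving out the scaling moved the median of all genes by 0.12.

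In the pathway terms of the deposited table, looked at after the values were seen, the terms for glycine, serine and threonine metabolism and for the folate one-carbon pool hold 37 and 14 genes outside the 10. Their counts again stand beside the 28.2% of all tested genes that were higher and the 28.8% that were lower. Of 20 tested genes of the first, 5 were higher and 5 lower with tranilast. The genes named here were picked after their values were seen. Grhpr, the glyoxylate and hydroxypyruvate reductase, fell by 0.48 on the log2 scale (SE 0.085), and Aoc2 was at -0.95 (SE 0.19). Tha1, with a mean count of only 19.6, rose by 1.15 (SE 0.29) from 0.862 ± 0.239 CPM (SD, n = 4). Alas1, which uses glycine to open heme synthesis, rose by 0.25 (SE 0.077). Of 13 tested genes of the second, 3 were higher and 4 lower, and Tyms, which makes thymidylate from methylene-tetrahydrofolate, fell by 0.18 (SE 0.065).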
